A study of Mus musculus with 9 samples.

Results

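Potassium channel genes were taken as all genes whose symbol in the platform annotation starts with Kcn. Each gene was read by 1 probe set, the one with the highest mean log2(signal + 16) over all 9 arrays among the probe sets that name that gene alone. This gave 62 genes of 12393 named in all, represented by 90 probe sets. Motor neurons had been cut by laser from lumbar spinal cord of mice in 3 groups of 3, with 1 animal and 1 Affymetrix array per sample. They came from wild-type mice given vehicle, transgenic mice with spinal muscular atrophy (SMA) given vehicle, and SMA mice transplanted with cells that the labels call NSC, from what is known of the study neural stem cells. Each of the 9 mice was operated on at postnatal day 1, and tissue was taken at day 13 after fixation by perfusion. The sources used here do not give the SMA alleles, the strain or the sex of the animals.

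Potassium channels let potassium leave the cell, set its resting potential and end each action potential. In voltage-gated (Kv) channels, pore-forming alpha subunits assemble in fours, and beta, KChIP and KCNE subunits change how they open and where they are placed. Inward rectifiers (Kir) hold the resting potential and, in glia, take up potassium that active neurons release. Tandem pore domain (K2P) channels carry background leak current, and calcium-activated channels shape the pause after a spike. Spinal motor neurons and the axons and glia around them use members of each of these families.

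The values are MAS5 signals, a linear brightness per probe set in arbitrary units, with a median of 31.4 to 35.8 per array. A level at one probe set was therefore not set against a level at another. A gene was called above background, and was tested, when its probe set lay in the upper 50% of the 22626 probe sets by mean log2(signal + 16). The arrays also differed in marker genes, in part within groups and in part between them. Neurofilament gene Nefl read 559.1 to 1458, and the oligodendrocyte gene Mbp 7831.6 to 13348.6. Of 8 motor neuron markers, 1 was above background, Isl2 at 26.4 to 119.8. The others were dim, with Slc18a3 at 2.1 to 41.7, Isl1 at 3.8 to 16.7 and Prph at 1.5 to 76.6. The summed signal of the 8 was 85.8 to 282.2, so these probe sets mark the labelled cell type only weakly. Of 10 motor neuron genes listed, 8 had a value, and dim readings do not show that the cells were few. Of 10 neuronal markers, 8 were above background. Summed muscle markers were 2452 and 3032 on SMA 1 and SMA 2 against 111.3 to 283 elsewhere. Xist, transcribed in females, read 23.5 to 47.6 in all wild-type animals and in SMA 3, and 366.1 to 879.5 in the remaining 5. In such samples, fewer cells of a type and less RNA per cell cannot be told apart.

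Fewer than 1 in 3 of the potassium channel genes read above background. Of the 62 genes, 18 (29.0%) lay in the upper 50%, against 58.5% of all 12393 genes by the same choice of the brightest probe set. The upper 25% held 5, which were Kcnj10, Kcnk1, Kcnd2, Kcna1 and Kcnip3. Array by array, 16 to 21 of the 62 genes were in the upper 50%, with the fewest on transplanted SMA 3 and the most on transplanted SMA 2. On all 9 arrays 12 genes were in the upper 50%, on some arrays 13, and on none 37. All 18 tested genes were in the upper 50% by each group's mean, so none entered through 1 group alone. The last gene inside the limit was Kcnh2 at percentile 54.8, and the first outside was Kcnh1 at percentile 47.1.

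By family, both Kv3 genes with a value, Kcnc1 and Kcnc4, were above background, and so were 2 of 3 Kv beta genes (Kcnab1 and Kcnab2) and 2 of 4 KChIP genes (Kcnip1 and Kcnip3). KCNE subunits had 2 of 5 (Kcne1l and Kcne4), Kv4 had 1 of 3 (Kcnd2), BK beta subunits 1 of 3 (Kcnmb4), and calcium- and sodium-activated channels 2 of 6 (Kcnma1 and Kcnn2). Of 8 K2P genes, 2 were above background (Kcnk1 and Kcnk2), of 4 Eag, Erg and Elk genes 1 (Kcnh2), of 13 inward rectifiers 2 (Kcnj10 and Kcnj3), and of 7 Kv1 genes 1 (Kcna1). Neither Kv7 gene with a value (Kcnq1 and Kcnq5) and neither silent Kv subunit (Kcns1 and Kcns2) was. For Kcnc4, Kcnab1, Kcnab2 and Kcnma1 the only other probe set was below the limit, at percentiles 9.53, 28.0, 11.1 and 34.3. Among the 44 dim genes, 31 stayed under a signal of 30 on every array. Kcna2, the Kv1 partner of Kcna1 in axons, read 9.1 to 26.9, and Kcnip4 of the KChIPs 12.9 to 30.1. Kcnj8, an inward rectifier of pericytes, read 5.8 to 48.9, and the small-conductance channel Kcnn3 1.5 to 19.2. These dim readings do not show that the genes were silent.

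**Figure D1:**
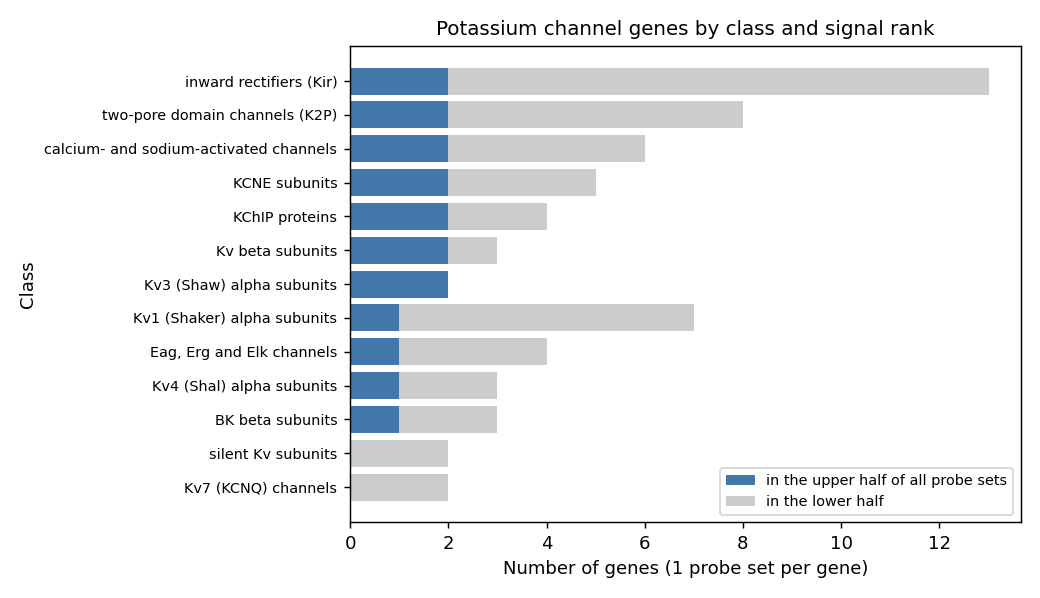
Number of potassium channel genes per class, with 1 probe set per gene. Blue bars count the genes in the upper 50% of all probe sets by mean signal and grey bars those in the lower 50%; 2 of 13 inward rectifiers and 1 of 7 Kv1 genes are blue, against 2 of 2 Kv3 genes.

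SMA minus wild type compares diseased with healthy animals, both given vehicle. The groups also differed in sex-linked and muscle markers. Xist read 23.5 to 32.9 in wild type and 600.7, 879.5 and 47.6 in SMA 1, 2 and 3. The Y-linked Eif2s3y read 49 to 75.1 in wild type and 0.5, 0.1 and 108.9 in SMA 1, 2 and 3. Summed muscle markers were 2452 and 3032 on SMA 1 and SMA 2, against 111.3 to 283 in wild type. The parts of sex and muscle RNA were not tested beyond fits with Xist or the muscle list as a covariate. None of the 18 tested genes passed the threshold of an adjusted p of 0.05 (limma, adjusted over all 11313 tested probe sets), where 0.0442% of all tested probe sets passed. The smallest adjusted p was 0.749. At an unadjusted p under 0.05, Kcnk1 and Kcnn2 were higher in SMA (2 of 18, 11.1%, against 2.71% of all probe sets) and Kcnip3 was lower (1 of 18, 5.56%, against 3.32%). Groups did not overlap for Kcnk1 and Kcnn2 on the higher side (11.1% against a background of 5.31%) and for Kcnc4 on the lower side (5.56% against 6.06%). The median difference over the 18 was 0.17 on the log2(signal + 16) scale, beside 0.01 over all tested probe sets, and 10 of 18 were positive (55.6% against 51.0%).

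Transplanted SMA minus SMA compares SMA animals given the cell transplant with SMA animals given vehicle. These groups also differed in muscle markers, with sums of 2452 and 3032 on SMA 1 and SMA 2. The sums were 141.8 on the remaining SMA array and 134 to 202.2 on the transplanted arrays. Xist read 47.6 to 879.5 in SMA and 366.1 to 739.6 in transplanted animals. Of 9 tested microglial markers, 0 were higher in the transplanted animals, with a median difference of -0.79. At an unadjusted p under 0.05 (limma) 4 of these 9 were lower, and 0 passed the adjusted threshold. The part of the transplant itself in the differences between these groups was not tested. In this comparison 0 of 18 passed, and 0% of all tested probe sets did. No member had an unadjusted p under 0.05 in either direction, where 2.32% of all probe sets were higher and 2.46% lower by that rule. Groups did not overlap for Kcnc4 alone, which was higher (5.56% against 4.43% of all probe sets), and for 0 on the lower side (background 4.68%). The median was 0.15, beside 0.00 over all probe sets, with 11 of 18 positive. It was -0.01 without SMA 2 and 0.02 without SMA 1 and SMA 2.

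Transplanted SMA minus wild type also gave 0 of 18 past the threshold, and 0% of all tested probe sets. Xist was at 366.1 to 739.6 in the transplanted animals and 23.5 to 32.9 in wild type. Eif2s3y was at 0.4, 0.3 and 84.8 in transplanted SMA 1, 2 and 3, and at 49 to 75.1 in wild type. The part of sex in this comparison was not tested beyond the fit with Xist. Kcnk1 and Kcna1 were higher at an unadjusted p under 0.05 (2 of 18, 11.1%, against 3.27%), and 0 were lower (background 3.28%). The same 2 genes were the ones whose groups did not overlap, both higher (11.1% against 7.11%), with 0 on the lower side (background 7.04%). The median was 0.11, beside -0.01 over all probe sets, and 12 of 18 were positive. The 3 comparisons share arrays, so their values are given side by side below and not as independent results. In each comparison, leaving out some single array moved the difference by over 1.5 times or turned its sign for 16 of the 18 genes. The share of all tested probe sets that moved so was not counted, so this is not shown to be particular to these genes. Intervals are wide at 3 arrays per group: over the 18 genes the 95% confidence bounds of single differences reached from -2.22 to 1.85 in the first comparison, -1.31 to 2.07 in the second and -1.39 to 2.79 in the last.

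**Figure D2:**
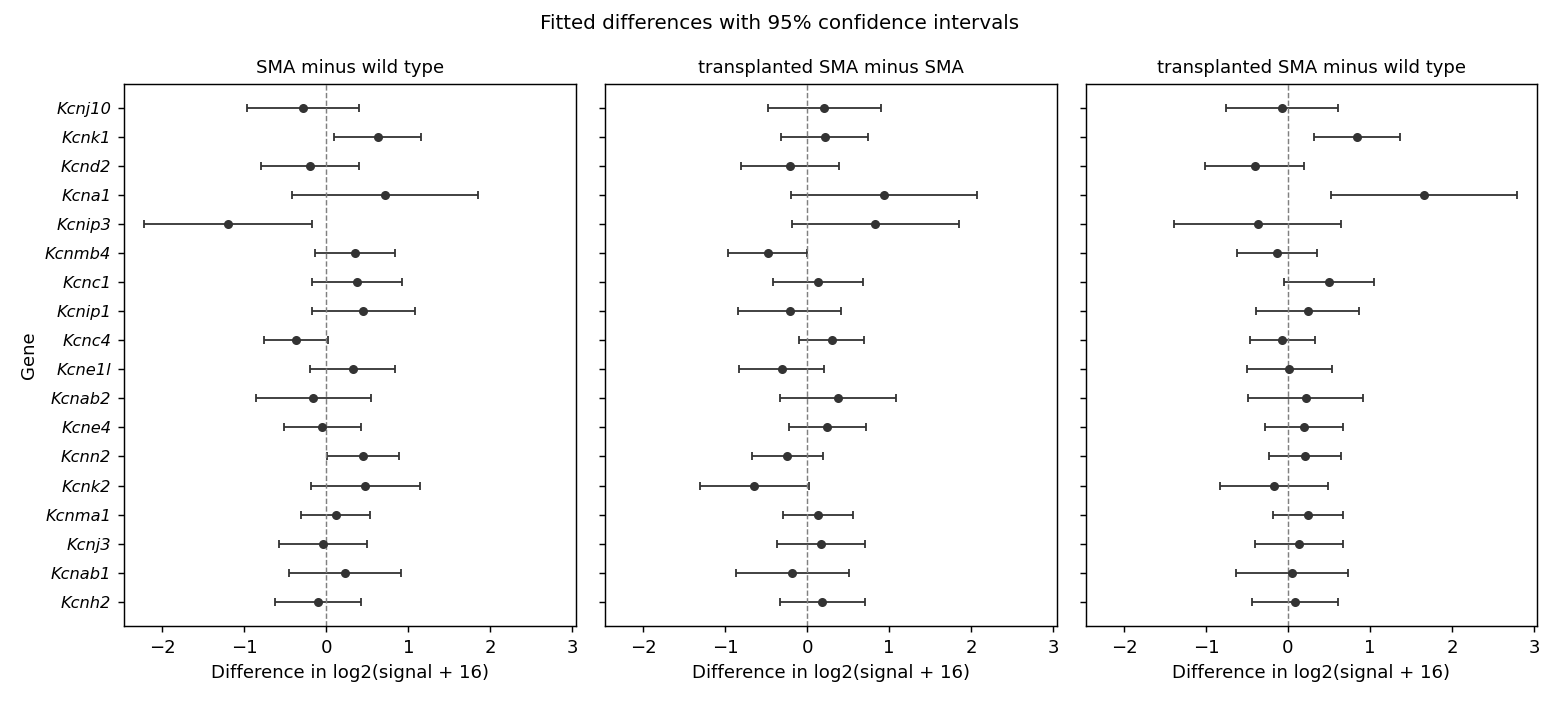
Fitted differences in log2(signal + 16) for the 18 tested genes (points) with 95% confidence intervals from limma (bars), 1 panel per comparison; the dashed line is 0. The whole interval lies above 0 for Kcnk1 in both comparisons with wild type, for Kcnn2 in the first and for Kcna1 in the last. It lies below 0 for Kcnip3 in the first, and none of these genes passed after adjustment.

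Kcna1, the Kv1 alpha subunit of axons beside the nodes of Ranvier and of fast-firing neurons, differed most between transplanted SMA and wild type. Kcna1 read 58.1, 54 and 130.8 in the wild-type animals, 70.1, 102.9 and 316.1 in the SMA animals, and 507.5, 165.3 and 235.6 in the transplanted animals. All 3 transplanted animals were above all wild-type animals, while SMA overlapped with both, and SMA 3 was the highest of its group. The difference was 1.66 (SE 0.51) for transplanted SMA minus wild type, with a limma adjusted p of 0.631. It was 0.72 (SE 0.51) for SMA minus wild type, and 0.15 without SMA 3. For transplanted SMA minus SMA it was 0.94 (SE 0.51), but 0.51 without transplanted SMA 1, 0.54 without SMA 1, 1.51 without SMA 3 and -0.21 without SMA 1 and SMA 2. The within-group spread of Kcna1, an SD of 0.82 on the log2 scale, was at percentile 98.7 of all tested probe sets.

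The Kv3 subunits, which let neurons fire at high rates by ending spikes quickly, did not move alike. Kcnc1 read 87.9, 72 and 73.2 in the wild-type animals, 126.2, 81.1 and 112.1 in the SMA animals, and 170.8, 114.6 and 79.1 in the transplanted animals. The lowest SMA and transplanted readings lay within the wild-type range, and the differences from wild type were 0.37 (SE 0.25) and 0.50 (SE 0.25). Kcnc4 read 116.3, 77.7 and 91.1 in the wild-type animals, 73.5, 70.6 and 63.7 in the SMA animals, and 77.5, 100.8 and 89.7 in the transplanted animals. The SMA animals were below all the others. Its differences were -0.37 (SE 0.18, limma adjusted p = 0.843) for SMA minus wild type and 0.30 (SE 0.18, limma adjusted p = 0.933) for transplanted SMA minus SMA. The other Kcnc4 probe set, at 1.9 to 7.1, was too dim to show a change.

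Kcnd2, the Kv4 subunit of dendritic A-type current, had the lowest group mean in transplanted SMA. It read 258.2, 163.8 and 144.1 in the wild-type animals, 165.6, 177.4 and 134 in the SMA animals, and 89, 188 and 142 in the transplanted animals. The 3 ranges overlapped, and transplanted SMA minus wild type was -0.41 (SE 0.27). It was -0.15 without transplanted SMA 1, -0.18 without wild type 1 and -0.63 without transplanted SMA 2. Its 2 other probe sets, both tested, gave -0.39 and -0.20 for the same comparison.

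KChIP proteins bind Kv4 channels and bring them to the membrane. Kcnip3, which is also the calcium-binding transcription repressor DREAM, had the lowest difference of the 18 genes in SMA. Signals were 171.1, 256.8 and 101.1 in the wild-type animals, 127.6, 86.2 and 17.7 in the SMA animals, and 109.6, 131.2 and 134.6 in the transplanted animals. SMA 3 was far below the other arrays, and SMA 1 lay within the wild-type range. SMA 3 also had the highest ratio of 3′ to 5′ actin signal, a sign of shorter RNA, at 4.32 against 2.48 to 3.66 on the other arrays. By the same ratio for Gapdh, SMA 1 was highest at 4.26, before SMA 3 at 3.92 and transplanted SMA 3 at 3.82. The part of RNA length in the Kcnip3 reading was not tested. SMA minus wild type was -1.20 (SE 0.46, limma adjusted p = 0.749), -0.58 without SMA 3, and -0.03 (SE 0.20) at the other Kcnip3 probe set, whose 9 signals were 29.8 to 56.5. The pair of probe sets therefore disagree. Kcnip1 read 98.3, 100.5 and 52.6 in the wild-type animals, 175.9, 117.3 and 75.4 in the SMA animals, and 111.9, 101 and 84.5 in the transplanted animals. In each group the sample numbered 3 was lowest, and these were also the 3 lowest of all 9. A second tested Kcnip1 probe set was lowest on the same 3 arrays, at 43.7, 28.7 and 55.9. The differences of Kcnip1 from wild type were 0.45 (SE 0.29) in SMA and 0.24 (SE 0.29) in transplanted SMA.

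Kv beta subunits, which attach to the inside of Kv1 channels, were variable within groups. Kcnab2 read 57.8, 60.4 and 97.6 in the wild-type animals, 67.9, 30 and 103.6 in the SMA animals, and 77.9, 106.8 and 71 in the transplanted animals. Kcnab1 read 30.4, 38.6 and 70.9, then 56.1, 65.2 and 44.6, then 69.4, 57.2 and 23 in the same order of groups. Groups overlapped for both genes in each comparison, and differences ran from -0.18 to 0.37. KCNE subunits, single-pass proteins that slow or silence Kv channels, read 87, 55.9 and 57.4 for Kcne1l in wild type, 121.6, 74.9 and 69 in the SMA animals, and 63.5, 54.9 and 83.4 in the transplanted animals. Kcne4 was at 60.4, 80.5 and 55.6, then 69.7, 54.1 and 63.7, then 91.7, 52.9 and 91.6. Differences lay between -0.31 and 0.32 for this pair, none past the threshold.

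**Figure D3:**
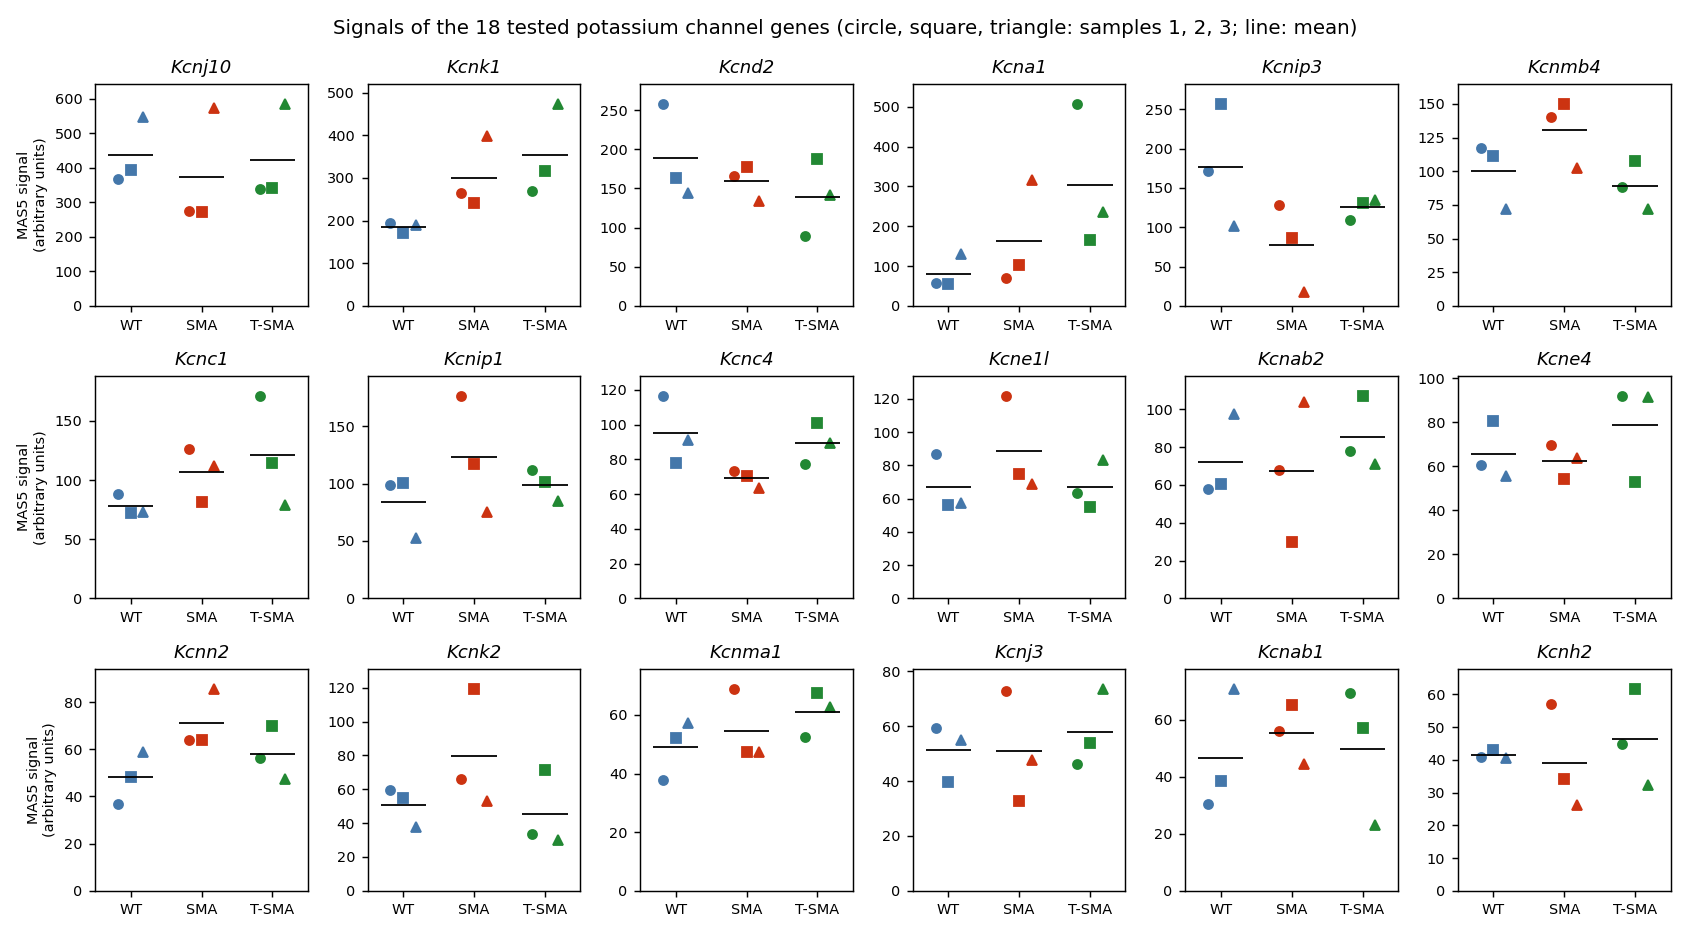
MAS5 signals (arbitrary units, axes from 0) of the 18 tested potassium channel genes on the 9 arrays, with WT for wild type and T-SMA for transplanted SMA. Circles, squares and triangles are samples 1, 2 and 3 of each group and black lines are group means; the 3 wild-type animals sit at 170.3 to 195.4 for Kcnk1, below the other 6.

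Kcnk1, a K2P channel of weak leak current found in neurons and glia, kept all wild-type animals apart from all SMA animals, transplanted or not. It read 195.4, 170.3 and 189.9 in the wild-type animals, 263.5, 241 and 398 in the SMA animals, and 269.9, 316.8 and 473.6 in the transplanted animals. The wild-type mean was 185 ± 13.2 (SD, n = 3), the SMA mean 301 ± 84.9 (SD, n = 3) and the transplanted SMA mean 353 ± 107 (SD, n = 3). SMA minus wild type was 0.62 (SE 0.24, 95% interval 0.10 to 1.15, limma adjusted p = 0.749), or 1.54-fold on this scale. Without SMA 3 it was 0.42. Transplanted SMA minus wild type was 0.84 (SE 0.24, 95% interval 0.31 to 1.37, limma adjusted p = 0.557), or 1.79-fold. Transplanted SMA minus SMA was 0.22 (SE 0.24, 95% interval -0.31 to 0.74). The dimmer Kcnk1 probe set gave 0.39 (SE 0.29) and 0.54 (SE 0.29) against wild type, and its SMA 2 reading of 19.6 was below the wild-type readings of 27.5 to 31.9. Xist also differed between the groups. The 3 wild-type animals, with Xist at 23.5 to 32.9, had the lowest Kcnk1. SMA 3, with Xist at 47.6, had Kcnk1 at 398. The 5 animals with Xist at 366.1 or more had Kcnk1 at 241 to 473.6. Among them, transplanted SMA 3, with the highest Kcnk1, also had the Y-linked Eif2s3y at 84.8, so Xist alone does not give its sex. The part of sex in the Kcnk1 readings was not tested beyond a fit with Xist as a covariate, which gave 1.22 and 1.62 against wild type.

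Kcnk2, a K2P channel opened by stretch and lipids, read 59.5, 54.8 and 37.5 in the wild-type animals, 66, 119.3 and 53.2 in the SMA animals, and 33.8, 71.3 and 30.2 in the transplanted animals. The highest reading was on SMA 2, and the groups overlapped. Differences were 0.47 (SE 0.30) for SMA minus wild type and -0.64 (SE 0.30, limma adjusted p = 0.933) for transplanted SMA minus SMA. Kcnk3, an acid-sensitive leak channel of motor neurons, was too dim to test at 1.9 to 12 on 8 arrays and 40.8 on transplanted SMA 2.

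Kcnj10, the main inward rectifier of astrocytes and oligodendrocytes, had overlapping groups and did not pass the test in any comparison. It read 367.3, 394 and 546.1 in the wild-type animals, 274.1, 272.2 and 572.9 in the SMA animals, and 338.6, 341.5 and 585.4 in the transplanted animals. Its 3 highest readings were on the 3 arrays numbered 3, and its 2 lowest were SMA 1 and SMA 2. The differences were -0.28 (SE 0.31) for SMA minus wild type, 0.21 (SE 0.31) for transplanted SMA minus SMA and -0.07 (SE 0.31) for transplanted SMA minus wild type, and the first was -0.62 without SMA 3 (limma adjusted p = 0.552) and 0.40 without SMA 1 and SMA 2. Some markers of other cells were also highest on the arrays numbered 3, and others were not. The summed signal of 9 oligodendrocyte markers was 34180, 39100 and 41390 on these 3 arrays against 22840 to 31330 on the other 6, a sum set mostly by the brightest genes. Of the 9, Mobp, Cldn11, Ugt8a and Olig1 had their 3 highest readings there and none its 3 lowest, and Mag was lowest on wild type 3 and SMA 3. By the mean log2 value of the list, wild type 3 (10.91) was level with wild type 2 (10.91). For 10 astrocyte markers the sums were 11550, 16280 and 15330 against 9232 to 12380, with overlap. Gfap and S100b had their 3 highest readings there and Slc1a3 its 3 lowest, and by mean log2 value wild type 3 (9.08) was below wild type 1 (9.17) and transplanted SMA 2 (9.25). For 10 neuronal markers the sums were 2133, 1464 and 1695 against 2147 to 4193, with 3 of the 10 at their 3 lowest there (Stmn2, Gap43 and Tubb3) and 0 at their 3 highest. Above background were 9 of the 10 astrocyte markers, with lowest readings of 41.5 for Slc1a2, 399.6 for Gfap and 723.6 for Aqp4. Sox9 was dim at 19.3 to 41.5. All 9 oligodendrocyte markers were above background, with lowest readings of 76.1 for Olig2, 3132.5 for Mobp and 7831.6 for Mbp. Of 10 microglial markers, Aif1 and Ctss also had their 3 highest readings on the arrays numbered 3, and 0 had their 3 lowest. The share of all tested probe sets with such a pattern was not counted. The part of these cells in the Kcnj10 and Kcnip1 readings was not tested, and this sorting by sample number was chosen after the values were seen. Kcnj3, a subunit of the inward rectifier that G proteins open, read 32.7 to 73.6 over the 9 arrays, and its differences were -0.04, 0.17 and 0.13 in the 3 comparisons.

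**Figure D4:**
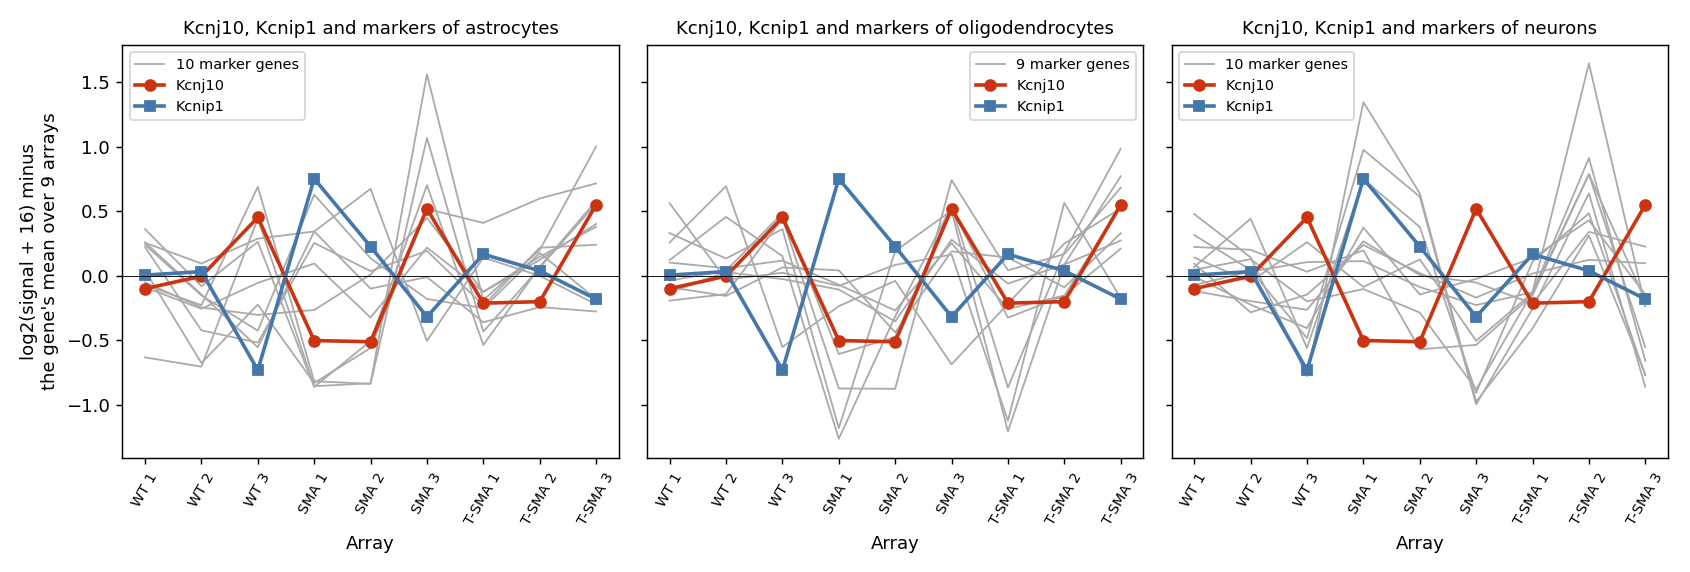
Log2(signal + 16) minus the gene's own mean over 9 arrays, by array, for Kcnj10 (red), Kcnip1 (blue) and the markers of astrocytes (10 genes), oligodendrocytes (9) and neurons (10) in grey; WT is wild type and T-SMA transplanted SMA. Kcnj10 is highest and Kcnip1 lowest on the 3 arrays numbered 3.

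The promoters of Kcnk1 and Kcnj10 are shown because Kcnk1 was the one of the 18 tested genes whose wild-type readings lay below both other groups and Kcnj10 the one with its 3 highest readings on the arrays numbered 3. They are RefSeq sequences (GRCm38.p6) from 250 bases before the gene start, 5′ to 3′ on the strand of the gene, with CG dinucleotides in capitals. Kcnk1 lies at chr8:125994852-125995151 (plus strand) and Kcnj10 at chr1:172340960-172341259 (plus strand).
Kcnk1: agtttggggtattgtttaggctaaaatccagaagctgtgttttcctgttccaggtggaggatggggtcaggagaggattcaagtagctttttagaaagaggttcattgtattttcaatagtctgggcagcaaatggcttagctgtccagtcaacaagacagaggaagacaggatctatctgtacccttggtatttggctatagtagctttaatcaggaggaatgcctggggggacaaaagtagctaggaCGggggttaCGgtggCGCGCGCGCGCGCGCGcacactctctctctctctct
Kcnj10: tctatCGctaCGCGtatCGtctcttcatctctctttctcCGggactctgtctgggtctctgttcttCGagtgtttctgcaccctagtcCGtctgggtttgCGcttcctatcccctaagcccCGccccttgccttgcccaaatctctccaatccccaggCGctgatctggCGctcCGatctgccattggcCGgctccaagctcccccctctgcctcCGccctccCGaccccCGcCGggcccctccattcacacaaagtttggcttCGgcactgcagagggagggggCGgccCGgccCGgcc

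The Kcnk1 window held 10 CG dinucleotides, most of them in 1 uninterrupted repeat of that dinucleotide after the start, and 49.0% G and C. The Kcnj10 window held 21 and 63.7%. The median over 32851 promoters was 7 CG and 52.7%, and over the 68 promoters of 50 potassium channel genes matched by gene ID 10 CG and 59.0%. Searched on both strands, the GC box GGGCGG was found 3 times in the Kcnj10 window and 0 times in that of Kcnk1, against at least 1 match in 35.7% of all promoters and 50.0% of those of potassium channel genes. The TATA box TATAAA, the E-box CACGTG and the core TGACG of the cyclic AMP response element were in neither window, and they were in 13.6%, 7.15% and 20.8% of all promoters. All but the TATA box contain the dinucleotide marked in capitals, and a match is no evidence of binding.

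Kcnn2, the small-conductance channel behind the afterhyperpolarisation that limits firing of motor neurons, read 36.8, 48.4 and 58.9 in the wild-type animals, 63.8, 64.1 and 85.6 in the SMA animals, and 56.4, 69.9 and 47.2 in the transplanted animals. Each SMA animal was above each wild-type animal, and transplanted SMA overlapped with both. SMA minus wild type was 0.45 (SE 0.20, limma adjusted p = 0.820), transplanted SMA minus SMA -0.24 (SE 0.20) and transplanted SMA minus wild type 0.21 (SE 0.20). Kcnmb4, the neuronal beta subunit of the large-conductance (BK) channel, read 117, 111.1 and 72.2 in the wild-type animals, 140.3, 150.1 and 102.5 in the SMA animals, and 88.3, 107.3 and 72 in the transplanted animals. Its differences were 0.35 (SE 0.22) and -0.48 (SE 0.22, limma adjusted p = 0.933) in the first and second comparisons, with overlap by 1 animal in each. Kcnma1, the BK pore subunit, stayed between 37.9 and 68.9 on all arrays, with differences of 0.11, 0.13 and 0.25. Kcnh2, an Erg channel that slowly adapts firing, read 26.1 to 61.7, with differences of -0.10, 0.19 and 0.09.

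Counting at which array each of the 18 genes was highest, SMA 1, transplanted SMA 1 and transplanted SMA 3 had 3 each, where 17.6%, 13.3% and 11% of all tested probe sets were highest, and the other arrays had 1 or 2. At the low end, wild type 2, SMA 2, SMA 3 and transplanted SMA 3 had 3 each, where 6.89%, 11.8%, 15.3% and 13.1% of all tested probe sets were lowest, and SMA 1 had 0 (13.4%). The median deviation of the 18 genes from their 9-array means was highest on transplanted SMA 2 (0.21) and SMA 1 (0.17) and lowest on SMA 2 (-0.17), while over all tested probe sets it stayed between -0.02 and 0.03. Within groups, the median SD of the 18 genes was 0.33 on the log2 scale, beside 0.26 over all tested probe sets, and ran from 0.18 for Kcnc4 to 0.82 for Kcna1.

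Proteins that anchor or modify potassium channels were read from a fixed list of 19 genes, of which 17 had a value and 12 were above background. None passed the threshold in any comparison. At an unadjusted p under 0.05, the number higher was 1 of 12 in SMA minus wild type (2.71% of all tested probe sets), 0 in transplanted SMA minus SMA (2.32%) and 2 in transplanted SMA minus wild type (3.27%). By the same rule 0 were lower, where 3.32%, 2.46% and 3.28% of all tested probe sets were. The medians over the 12 were 0.14, 0.15 and 0.10. Cntn1, an adhesion protein of the node region, read 1018.6, 1111.6 and 978.4 in the wild-type animals, 2006.9, 956 and 1755.9 in the SMA animals, and 1857, 1660 and 1597.4 in the transplanted animals. All transplanted animals were above all wild-type animals, and SMA 2 was at the wild-type level. Differences from wild type were 0.53 (SE 0.24, limma adjusted p = 0.825) and 0.71 (SE 0.24, limma adjusted p = 0.698). Next by p were the scaffold Dlg1 at -0.60 (SE 0.28) and the cytoskeletal linker Epb41l3 at -0.44 (SE 0.21) in SMA minus wild type. In transplanted SMA minus SMA they were Epb41l3 at 0.43, the axon initial segment anchor Ank3 at -0.45 and the ubiquitin ligase Nedd4l at -0.28. In transplanted SMA minus wild type the spectrin Sptbn4 gave 0.59 (SE 0.26) and the Kv4 partner Dpp6 0.65 (SE 0.30). Both sulfonylurea receptor genes of the ATP-sensitive channel, Abcc8 and Abcc9, were dim at 2.5 to 19.2, and of 3 genes of the related HCN channels with a value Hcn2 alone was above background, at 36.6 to 103 and with differences of 0.17, -0.01 and 0.16.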

How the data were processed

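Expression was measured on 9 arrays in 3 groups of 3 animals. The deposited intensity values are MAS5 signals, per the submitters' processing notes; the sources used here name no MAS5 version. On every array the mean after trimming 2% at each end was 100.04, so the authors' scaling was kept. Of 22690 probe sets, 64 controls were left out; 20380 named 1 gene, 691 several and 1555 were not listed. Looking up 20351 symbols by gene ID changed 0.

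Signals had 16 added and were taken to log2, which understates changes of dim genes. The 11313 probe sets in the upper 50% were fitted with limma 3.58.1 in R 4.3.3 (1 mean per group, eBayes with trend, 6 residual and 4.93 prior degrees of freedom). Tests were two-sided with Benjamini-Hochberg adjustment within each comparison at 0.05. The script was tested on simulated data. The number of arrays limits the precision.

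The members, lists and tests were chosen with earlier results of these data known. Named genes were, per comparison, members past the threshold and the 6 with the smallest p, 2 per class by mean signal, and 24 genes of known roles, of which 17 have a value here. Partner genes were named by the 3 smallest p. The 8 marker lists gave 0 genes past the threshold; in the order of the report, their median differences in the 3 comparisons were 0.26, 0.14 and 0.27 for astrocytes, -0.35, 0.20 and -0.14 for oligodendrocytes, 0.22, -0.79 and -0.37 for microglia, -0.16, 0.63 and 0.44 for endothelium and pericytes, 1.61, -1.30 and 0.20 for skeletal muscle, 0.00, 0.09 and -0.02 for neurons, and 0.46, 0.40 and 0.78 for meninges and fibroblasts. The motor neuron list had 1 tested gene, Isl2, at 0.11, 0.72 and 0.83. Alternatives covered scaling, pseudocount, filter, eBayes options, array weights, the arrays fitted, probe sets, Xist and muscle covariates, and leaving out arrays.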

Additional observations from a re-analysis of the deposited data

How the results depend on the processing

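In 26 other settings, 0 potassium channel genes passed the adjusted threshold (limma) in any comparison, and the lowest adjusted p among them was 0.162, 0.335 and 0.148 in the order of the report. The median over tested genes was unstable. For SMA minus wild type (0.17) it was -0.19 over the 5 genes of the upper 25%, 0.0385 with Xist as a covariate, 0.029 without SMA 1 and SMA 2, 0.29 without the arrays numbered 3, and 0.04 to 0.19 with single arrays left out. For transplanted SMA minus SMA (0.15) it was 0.0543 with the muscle list as a covariate, 0.0226 when SMA 1 and SMA 2 were left out, and -0.0144 to 0.19 with single arrays left out. For transplanted SMA minus wild type (0.11) it was -0.0708 in the upper 25%, -0.0507 with Xist, and 0.05 to 0.16 with single arrays left out. Xist differs between the groups.

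Counts at an unadjusted p under 0.05 were 3, 0 and 2 of 18 (6.04%, 4.77% and 6.55% of all tested probe sets). The share of all probe sets called also moved with the setting. In SMA minus wild type the count was 1 without wild type 1 (3.86% of all) or wild type 2 (4.3%). In transplanted SMA minus SMA it was 4 when either SMA 3 (9.39%) or transplanted SMA 2 (5.11%) was left out, and 3 with array weights (7.58%), with Xist (8.61%) or without the arrays numbered 3 (8.83%). In transplanted SMA minus wild type it was 5 with Xist (12.2%) or without the arrays numbered 3 (8.79%). With dim probe sets kept, the counts were 4, 4 and 6 of 62 (5.42%, 5.45% and 6.74%). Kcnk1 and Kcna1 stayed at an unadjusted p under 0.05 in transplanted SMA minus wild type in 26 of 26 settings (0.62 to 1.62 and 1.23 to 3.14). For SMA minus wild type this held in 22 settings for Kcnk1 (0.42 to 1.22), 23 for Kcnip3 (-2.43 to -0.58) and 13 of 25 for Kcnn2 (0.27 to 0.68). Signs changed in some setting for 11, 10 and 8 of the 18 genes in the 3 comparisons, none of them past the threshold. Sign changes over all tested probe sets were not counted. The sample numbers are not shown to pair the animals: deviations from group means correlated at -0.08 to 0.45 between arrays of one number. Wild type 1 correlated better with transplanted SMA 2 (0.25) than with transplanted SMA 1. The arrays numbered 3 correlated at 0.14 to 0.45 with each other, and wild type 3 with SMA 3 was the highest pair between groups. With the sample number as a replicate block the counts at an unadjusted p under 0.05 were 5, 3 and 3 of 18 (7.68%, 6.89% and 8.51% of all), and 0 genes passed the adjusted threshold.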

Other observations

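Readings of single groups or arrays are given here for some of the 44 dim potassium channel genes. In a fit of all probe sets, 2, 4 and 4 of the 44 had an unadjusted p under 0.05 in the 3 comparisons, in the order of the report, where 5.02%, 6.28% and 7.24% of all dim probe sets did, and 0 passed the adjusted threshold with limma. Kcna5, a Kv1 subunit, read 12.7, 14.5 and 11.3 in the wild-type animals, 49.9, 29.6 and 34.8 in the SMA animals, and 25.9, 20.7 and 14.5 in the transplanted animals. The SMA animals were above all others, and SMA minus wild type was 0.89 (SE 0.20, limma adjusted p = 0.612). Kcnab3, a Kv beta subunit, read 5.2, 5.9 and 20.5 in the wild-type animals, 5.2, 5.2 and 1.9 in the SMA animals, and 29.3, 31.6 and 17.1 in the transplanted animals. Transplanted SMA minus SMA was 1.05 (SE 0.23, limma adjusted p = 0.874), and the other Kcnab3 probe set, at 0.4 to 7, was too dim to show a change. In the 3 comparisons, groups did not overlap on the higher side for 4, 6 and 6 of the 44. Of all dim probe sets, 7.22%, 6.29% and 10.3% did so. On the lower side the counts were 2, 2 and 0, beside 2.63%, 3.88% and 2.91% of all dim probe sets.

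Single arrays held other high readings. Kcnn4, a calcium-activated channel of immune and red blood cells, read 98.3 on SMA 2 and 1.9 to 36.6 elsewhere. Kcnk3 read 40.8 on transplanted SMA 2 and 1.9 to 12 elsewhere, while its 2 other probe sets read 0.9 and 4.1 on that array. The genes in these paragraphs were chosen after their values were seen, apart from Kcnk3.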
